A study of Nicotiana tabacum with 16 samples.

Results

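Roots of tobacco (Nicotiana tabacum) with recessive alleles at Myc2a (labelled myc2a) were compared with roots of the cultivar K326, to which they are nearly isogenic, through 5 myc2a and 4 K326 libraries out of 16 in the series. K326 is the flue-cured cultivar that serves as the common background, and all plants were pot-grown, topped at flowering and sampled 18 h later. The other libraries, 3 of nic1 nic2 and 4 of nic1 nic2 myc2a, are also in the K326 background and enter as the second pair of genotypes whose labels differ by myc2a. All 63697 gene models of the deposited count table belong to the comparison, of which 43009 passed the filter on low counts and were tested. A stretch of ID group 11, from Ntab11g013420-1.1 to Ntab11g026250-1.1, is given apart from the rest, since levels in the same libraries led to its choice. The sources used here give neither the nature of the myc2a lesion nor the number of lines behind the genotype. Sample labels speak of roots taken from each plant without stating that each library is a separate plant, so p-values measure the spread between these libraries.

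MYC2 proteins are bHLH transcription factors of jasmonate signalling. JAZ repressors hold them inactive until jasmonate triggers the removal of the repressors. In tobacco roots, where nicotine is made, MYC2 proteins act with ERF transcription factors on the promoters of nicotine synthesis genes, and topping stimulates this synthesis. The identifiers carry an ID group and a serial number but no gene names, so MYC2a, the nicotine genes and markers of root tissue were not analysed here by name. The label of the genotype and the tissue were therefore not checked against their genes, and no role is given to any gene model below. Tobacco is an allotetraploid whose parental copies can be near-identical, and whether gene models share reads was not analysed here, so single values may mix copies. In bulk root RNA, fewer cells of a type and less RNA per cell cannot be told apart.

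Total counts lay between 35.4 M and 40.9 M in the K326 and myc2a libraries, apart from K326 replicate 2 with 71.8 M. The mean Spearman correlation of a library with the others of its group was 0.980 to 0.982 in K326 and 0.953 to 0.974 in myc2a, lowest in myc2a replicate 5 (0.953) and replicate 1 (0.962). Outside the stretch, between 7.65 and 21.0% of the 33444 gene models with at least 2 CPM (counts scaled to the library's total) in K326 stood under 75% of the K326 mean in a myc2a library. The highest shares were in replicate 5 (21.0%) and replicate 1 (19.4%), against 4.23 to 6.67% in the K326 libraries, which are themselves part of that mean.

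Of the 43009 gene models, 73 differed between myc2a and K326 with edgeR's quasi-likelihood test at an adjusted p of 0.05, which is 0.17% of those tested. There were 59 lower in myc2a (0.137%) and 14 higher (0.0326%). In the stretch of ID group 11, 42 of 838 tested gene models were called, 41 lower and 1 higher. Outside it 31 of 42171 were called (0.0735%), 18 lower and 13 higher, in 16 ID groups. The median log2 fold change over all gene models tested was 0.00, with the 5th to 95th percentiles at -0.64 and 0.57. At an unadjusted p under 0.05 stood 2239 gene models (5.21%), 1715 of them outside the stretch, 4.07% of those tested there.

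The calls outside the stretch were mostly large: 23 of the 31 were at least 4-fold, and 2 were under 2-fold. In 30 of the 31 the myc2a and K326 libraries did not overlap, while over all gene models tested 2.34% had no overlap, 1.35% with every myc2a library lower and 0.993% with every one higher. The count of calls rested on the libraries used. Leaving out a single library gave 22 calls without K326 replicate 1, 19 without K326 replicate 2, 30 without K326 replicate 3 and 30 without K326 replicate 4. It gave 434 without myc2a replicate 1, 31 without replicate 2, 37 without replicate 3, 32 without replicate 4 and 37 without replicate 5. Libraries of the other genotypes enter through the estimate of the spread, the filter on low counts and the scaling. Leaving them out singly moved the count to 46 (without nic1 nic2 replicate 2), 43 and 44 (without nic1 nic2 myc2a replicate 1 or 4). Of the 73 gene models, all 73 were also called without myc2a replicate 1. The 18 falls outside the stretch numbered 28 without that replicate and within 1.5 times of 18 without any other library. The 13 rises numbered 3, 2, 2 and 4 without K326 replicates 1, 2, 3 and 4, and 6, 7 and 8 without myc2a replicates 2, 3 and 5. With limma-voom in place of edgeR, 10 of the 31 calls outside the stretch were lost (adjusted p 0.05 to 0.67), and with limma-voom and sample quality weights 7 were (0.052 to 0.457).

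**Figure D1:**
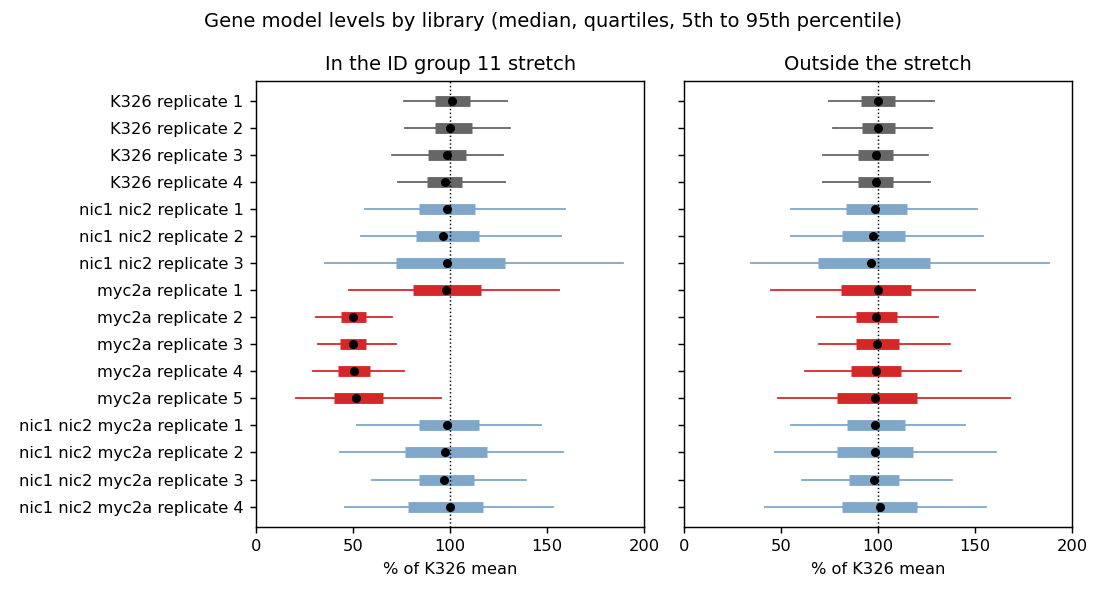
Level of each gene model as a percentage of its K326 mean, by library, for gene models of at least 2 CPM in K326, in the stretch of ID group 11 (left, 663 gene models) and outside it (right, 33444). Dots are medians, thick bars quartiles and thin lines the 5th to 95th percentiles, with K326 in grey, myc2a in red and the other genotypes in blue; in the stretch the medians of myc2a replicates 2 to 5 lie at 49.8 to 51.2% and that of replicate 1 at 97.8%.

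A run of 7 neighbouring gene models in ID group 8, from Ntab08g028890-1.1 to Ntab08g028950-1.1, was nearly absent in myc2a. Their summed level was 120, 121, 119 and 115 CPM in K326 replicates 1 to 4. In myc2a replicates 1 to 5 it was 0.778, 0.361, 0.435, 1.52 and 0.725 CPM. Each myc2a library, replicate 1 included, thus held a small remainder of the K326 level, and the groups lay far apart. The run was at 101.8 to 110.3 CPM in nic1 nic2 and at 122.5 to 138.5 CPM in nic1 nic2 myc2a, whose label also names myc2a.

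All 7 members of the run fell. Ntab08g028940-1.1, with the highest CPM of them (not scaled to length), was at 46.1, 40.7, 47.8 and 42.3 CPM in K326 and at 0.648, 0.129, 0.0272, 1.28 and 0.466 CPM in myc2a (log2 fold change -6.45 ± 0.43 SE, edgeR's adjusted p = 1.3e-07). Its highest myc2a value, in replicate 4, remained far under the lowest K326 value. Ntab08g028930-1.1 was at 23.7 to 32.8 CPM in K326 and at 0 CPM in 4 myc2a libraries, with 0.103 CPM in replicate 2 (log2 fold change -10.17 ± 0.39, edgeR's adjusted p = 1.47e-10). Ntab08g028950-1.1 went from 20.8 ± 2.35 CPM (SD, n = 4) to 0.0913 ± 0.0965 (n = 5). Ntab08g028900-1.1, Ntab08g028910-1.1 and Ntab08g028920-1.1 had no counts in any myc2a library. Against a floor of 3 counts per library they were at least 53.7-fold, 147-fold and 81.0-fold lower than in K326. At the start of the run, Ntab08g028890-1.1 fell from 2.80 ± 0.977 to 0.140 ± 0.152 CPM (edgeR's adjusted p = 0.000373).

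Beyond the run, mean levels were close to K326 or low in both genotypes. Of the neighbours, Ntab08g028870-1.1 stood at 102% of K326 in myc2a, and Ntab08g028970-1.1 and Ntab08g028990-1.1 on the other side at 87.6 and 95.9%. Ntab08g028990-1.1 was uneven, at 40.6 CPM in myc2a replicate 5 and 104.7 to 112.7 CPM in replicates 1 to 4. Between the run and these neighbours lay Ntab08g028880-1.1, at 0.101 to 0.451 CPM in K326 and 0 in every myc2a library. On the other side lay Ntab08g028960-1.1, at 0.101 to 0.591 CPM in K326. It was at 0.0518, 1.86, 0, 0.0583 and 0.155 CPM in myc2a replicates 1 to 5. Its myc2a mean of 0.425 CPM, against 0.299 in K326, thus rested on replicate 2. Neither of these was called, and levels this low do not settle where the run ends.

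Single gene models elsewhere were also nearly absent. Ntab05g003880-1.1 was at 19.7, 18.5, 20.1 and 16.1 CPM in K326 and at 0.155, 0.0774, 0.244, 0 and 0 CPM in myc2a (log2 fold change -7.55 ± 0.40 SE, edgeR's adjusted p = 9.85e-09). Ntab22g024750-1.1 was at 17.5, 17.2, 19.6 and 15.1 CPM in K326 and at 0, 0, 0.0272, 0.0583 and 0.440 CPM in myc2a (log2 fold change -7.30 ± 0.50, edgeR's adjusted p = 2.06e-07). In both, no myc2a library came near the K326 range. The neighbours within 3 tested gene models on either side of Ntab05g003880-1.1 stood at 106 to 144% of K326, and those of Ntab22g024750-1.1 at 73.2 to 121%, with 0 of them called. These were isolated losses in the order of the table, unlike the run.

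Ntab01g017260-1.1 kept a residual level. It was at 18.0, 14.4, 14.4 and 17.3 CPM in K326 and at 1.53, 1.06, 1.85, 2.33 and 2.38 CPM in myc2a, a log2 fold change of -3.13 ± 0.19 (SE; edgeR's adjusted p = 6.05e-08). The groups were separated by a wide gap and the spread within each was small. In nic1 nic2 it was at 16.5 ± 0.305 CPM (SD, n = 3) and in nic1 nic2 myc2a at 22.9 ± 2.87 (n = 4). Among its neighbours 0 were called, with levels of 65.7 to 190% of K326.

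Of the other falls, 3 held without any single library. Ntab20g007510-1.1 went from 3.74, 3.28, 2.54 and 2.39 CPM in K326 to 0.155, 0.206, 0.163, 0.0583 and 0 CPM in myc2a (log2 fold change -4.64 ± 0.69 SE, edgeR's adjusted p = 0.00826). Low levels of it were not confined to myc2a. It was at 0.847, 3.12 and 0.972 CPM in nic1 nic2 and at 1.14, 1.43, 0.180 and 0.573 CPM in nic1 nic2 myc2a. All of these but nic1 nic2 replicate 2 were under the lowest K326 library. Ntab10g022030-1.1 went from 3.77, 1.35, 1.58 and 1.21 CPM to at most 0.163 CPM (log2 fold change -4.16 ± 0.56, edgeR's adjusted p = 0.00289). That call was lost with limma-voom (adjusted p = 0.156) and with sample quality weights (0.052), over a range of 6.07e-11 to 0.156 in 29 alternatives. Ntab06g000070-1.1 fell less, from 12.4 ± 1.89 CPM (SD, n = 4) to 4.32 ± 1.11 (n = 5), a log2 fold change of -1.52 ± 0.20 (edgeR's adjusted p = 0.00173). For each of these gene models every myc2a library was under every K326 library.

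The remaining 5 falls outside the stretch were calls near the threshold (edgeR's adjusted p 0.0355 to 0.0499), each lost without any of several single libraries. Ntab06g022330-1.1 had no counts in myc2a and 0.547 to 2.09 CPM in K326, at least 19.4-fold lower (edgeR's adjusted p = 0.0467), and was also at 0 CPM in nic1 nic2 myc2a replicate 3. Its adjusted p reached 0.051 to 0.143 when any of 14 single libraries was left out, that is all but myc2a replicate 1 and nic1 nic2 myc2a replicate 3. Ntab17g011100-1.1 was at 2.87, 5.63, 1.13 and 17.4 CPM in K326, an uneven group, and at 0 to 0.598 CPM in myc2a (edgeR's adjusted p = 0.0355). It was at 0.454, 1.90 and 1.09 CPM in nic1 nic2 and at 3.68 to 23.7 CPM in nic1 nic2 myc2a. Without K326 replicates 1, 2 or 4, myc2a replicates 2, 3, 4 or 5, or nic1 nic2 myc2a replicate 1 its adjusted p was 0.0535 to 0.142. Ntab15g008200-1.1 (log2 fold change -3.47, edgeR's adjusted p = 0.0355) was likewise uneven in K326, at 12.1, 8.73, 4.03 and 2.02 CPM, against 0.163 to 1.24 CPM in myc2a. It was at 0.665, 3.29 and 4.92 CPM in nic1 nic2 and at 1.56 to 4.18 CPM in nic1 nic2 myc2a. Leaving out any of 9 libraries (K326 replicates 1, 2 and 3, myc2a replicates 3, 4 and 5 and 3 of the other genotypes) raised its adjusted p to 0.0506 to 0.16.

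Ntab18g021880-1.1 was even in K326 at 16.9 to 18.7 CPM and uneven in myc2a, at 2.46, 1.32, 6.68, 4.61 and 0.570 CPM (log2 fold change -2.53 ± 0.47 SE, edgeR's adjusted p = 0.0419). Its call was lost without any of the 4 K326 libraries, myc2a replicates 2 or 4 and 3 libraries of the other genotypes (adjusted p 0.058 to 0.147). Ntab05g002080-1.1 fell from 35.0 ± 10.1 CPM (SD, n = 4) to 11.4 ± 4.11 (n = 5), a log2 fold change of -1.63 ± 0.32 (edgeR's adjusted p = 0.0499). Its adjusted p was 0.0597 to 0.243 without any of 13 libraries, all but myc2a replicate 1 and nic1 nic2 myc2a replicates 2 and 3. In each of these 5 gene models the K326 and myc2a libraries did not overlap.

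**Figure D2:**
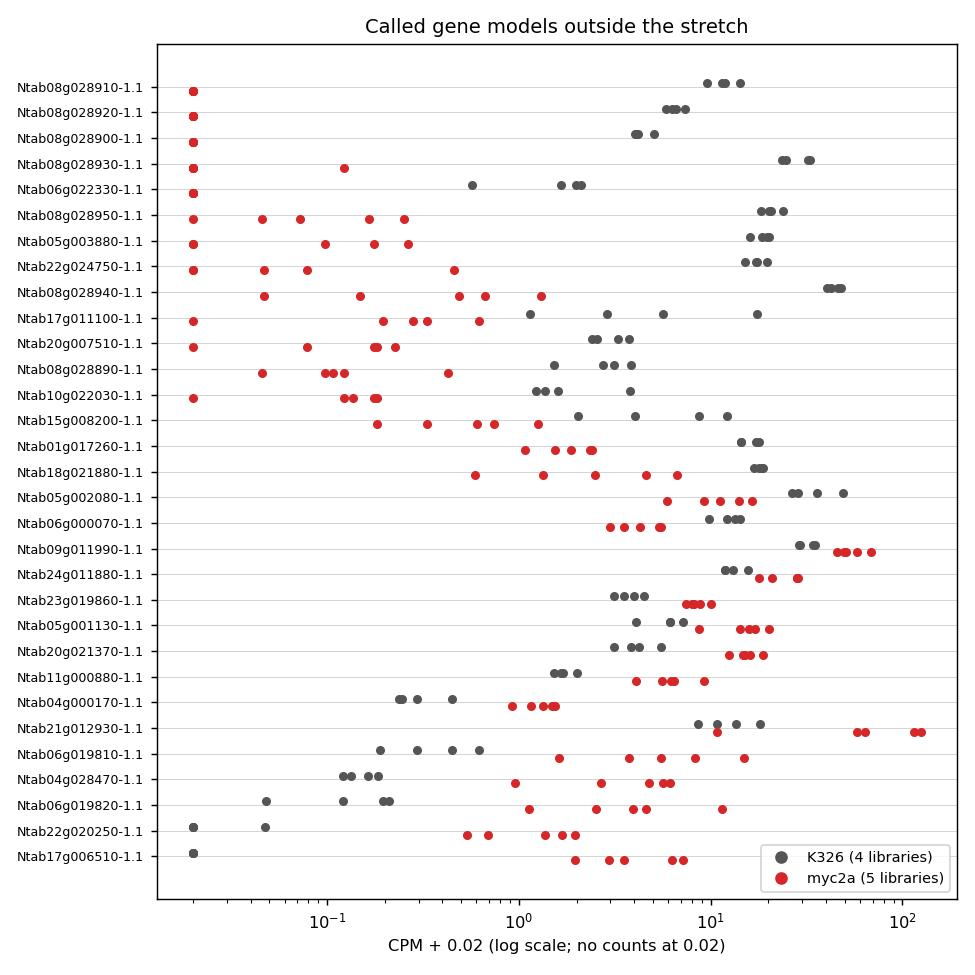
CPM plus 0.02 on a log axis of the 31 called gene models outside the stretch, ordered by log2 fold change, with each K326 library in grey and each myc2a library in red; gene models without counts lie at 0.02. In 30 of the 31 rows the red and grey points do not overlap, the exception being Ntab21g012930-1.1.

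Among the 13 rises, those least dependent on single libraries were Ntab17g006510-1.1 and Ntab20g021370-1.1. Ntab20g021370-1.1 was at 5.49, 4.22, 3.13 and 3.83 CPM in K326 and at 18.7, 14.7, 12.4, 15.0 and 16.0 CPM in myc2a, a log2 fold change of 1.88 ± 0.21 (SE; edgeR's adjusted p = 0.000203, at most 0.00643 over 29 alternatives). Its level was also 13.3 ± 3.95 CPM in nic1 nic2 (SD, n = 3) and 19.7 ± 3.72 in nic1 nic2 myc2a (n = 4). K326 was thus the genotype with the lowest level of this gene model. Ntab17g006510-1.1 had no counts in K326 and was at 1.94, 3.54, 2.93, 7.15 and 6.29 CPM in myc2a, at least 61.3-fold higher (edgeR's adjusted p = 0.00381). No library of nic1 nic2 or nic1 nic2 myc2a held a count of it, so among the 4 genotypes it was seen in myc2a alone.

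A further gene model seen almost exclusively in myc2a was Ntab22g020250-1.1, at 0.674, 0.516, 1.66, 1.95 and 1.35 CPM there. K326 held 1 count in all, in replicate 1, against 226 counts in myc2a. That is a ratio of 219 with a 95% exact counting interval of 38.9 to 8690 (edgeR's adjusted p = 0.0295). Its adjusted p was 0.0551 to 0.152 without K326 replicate 1, 2, 3 or 4 or myc2a replicate 3, 4 or 5. Ntab04g028470-1.1 rose from 0.101 to 0.164 CPM in K326 to 6.14, 4.78, 2.66, 5.66 and 0.932 CPM in myc2a (log2 fold change 4.91 ± 0.71 SE, edgeR's adjusted p = 0.012). It was at 0 CPM in the 4 nic1 nic2 myc2a libraries. Leaving out any K326 library lost this call (adjusted p 0.0629, 0.0753, 0.0599 and 0.0683 without replicates 1 to 4), as did limma-voom (0.155).

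The neighbours Ntab06g019810-1.1 and Ntab06g019820-1.1 rose together. Ntab06g019810-1.1 was at 0.601, 0.274, 0.169 and 0.428 CPM in K326 and at 8.27, 15.0, 3.75, 1.60 and 5.52 CPM in myc2a, a log2 fold change of 4.22 ± 0.64 (SE; edgeR's adjusted p = 0.00921). Ntab06g019820-1.1 was at 0.0282 to 0.191 CPM in K326 and at 4.59, 11.4, 2.50, 1.11 and 3.94 CPM in myc2a (log2 fold change 5.22 ± 0.88, edgeR's adjusted p = 0.0205). In both the highest library was myc2a replicate 2 and the lowest myc2a replicate 4, so the extremes of both gene models were the same libraries. The call of Ntab06g019810-1.1 was lost without K326 replicates 2 (adjusted p = 0.0705) or 3 (0.0508). It was also lost with limma-voom (0.324) and with sample quality weights (0.266). The call of Ntab06g019820-1.1 was lost with limma-voom (0.51), with sample quality weights (0.362) and without K326 replicates 1 (0.088), 2 (0.132), 3 (0.083) or 4 (0.0793) or myc2a replicate 2 (0.0501).

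Ntab05g001130-1.1 rose from 6.09, 4.05, 6.15 and 7.13 CPM in K326 to 16.9, 20.1, 8.69, 14.3 and 15.8 CPM in myc2a (log2 fold change 1.38 ± 0.22 SE, edgeR's adjusted p = 0.013). The myc2a libraries were higher throughout, with replicate 3 nearest to K326. The call was lost without K326 replicates 1 (adjusted p = 0.0629), 2 (0.0753) or 3 (0.0511). Ntab21g012930-1.1 was the exception among the calls in that its groups overlapped: K326 was at 8.57, 10.8, 13.5 and 18.1 CPM and myc2a at 125, 115, 10.7, 64.1 and 58.4 CPM (edgeR's adjusted p = 0.0467). Replicate 3 of myc2a stood within the K326 range while the other 4 stood above it. Its adjusted p was 0.057 to 0.227 without any of 14 libraries, all but myc2a replicates 1 and 3.

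The other 5 rises were between 1.72-fold and 4.43-fold, and for 4 of them the mean in nic1 nic2 was near that in myc2a. Ntab11g000880-1.1, in ID group 11 but before the stretch, was at 1.71 ± 0.205 CPM in K326 (SD, n = 4), 6.31 ± 1.90 in myc2a (n = 5) and 5.55 ± 0.810 in nic1 nic2 (n = 3). Ntab04g000170-1.1 was at 0.286 ± 0.0982, 1.27 ± 0.254 and 0.980 ± 0.290 CPM in the same order. Ntab24g011880-1.1 was at 13.1 ± 1.75, 24.8 ± 5.04 and 23.6 ± 1.66 CPM, and Ntab09g011990-1.1 at 31.8 ± 3.15, 54.5 ± 9.04 and 53.1 ± 8.60 CPM. Setting both genotypes against K326 uses the same K326 libraries. Ntab23g019860-1.1 was at 3.77 ± 0.602 CPM in K326, 8.46 ± 0.988 in myc2a and 4.56 ± 0.548 in nic1 nic2. Their adjusted p in myc2a against K326 were 0.023, 0.0467, 0.0459, 0.049 and 0.024 in this order with edgeR. When single libraries were left out, these calls were lost in 7, 14, 11, 13 and 6 of 16 cases, among them every K326 library for each.

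In the stretch of ID group 11, levels in myc2a replicates 2 to 5 lay near 50% of K326 and those in replicate 1 near 100%. Among 663 gene models with at least 2 CPM in K326, the median was 97.8, 49.8, 49.9, 50.2 and 51.2% of the K326 mean in myc2a replicates 1 to 5, and 97.1 to 101% in the K326 libraries. The 3 nic1 nic2 libraries were at 96.5 to 98.2% and the 4 nic1 nic2 myc2a libraries at 96.9 to 100%. The stretch was chosen from such values, so they are a description and carry no test. The stretch holds 1284 of the 2628 gene models of the ID group and ends 3 gene models before its last serial number.

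Summed over the tested gene models, the stretch took 16199, 16365, 15867 and 16317 CPM in K326 replicates 1 to 4. It took 16293, 8089, 8209, 8256 and 8163 CPM in myc2a replicates 1 to 5. Replicate 1 was within the K326 range on this sum. Under 75% of the K326 mean stood 19.3% of the gene models in myc2a replicate 1, against 96.4, 96.5, 94.0 and 85.1% in replicates 2 to 5. Outside the stretch the share in replicate 1 was 19.4%, so the stretch did not stand apart from other gene models in that library.

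The lower level was even along the stretch and across expression levels. In bins of 1000 serial numbers from 14000 on, the medians were 46.0 to 52.5% in replicate 2, 45.9 to 51.0% in replicate 3, 46.4 to 55.9% in replicate 4 and 45.9 to 59.2% in replicate 5. Replicate 1 was at 91.7 to 103% in these bins. In the 13 bins before 13000, all 5 libraries were at 90.9 to 109%. Gene models of 2.01 to 7.78 CPM in K326 had medians of 47.8 to 51.1% in replicates 2 to 5, and those of 21.1 to 808 CPM had 49.3 to 50.6%.

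**Figure D3:**
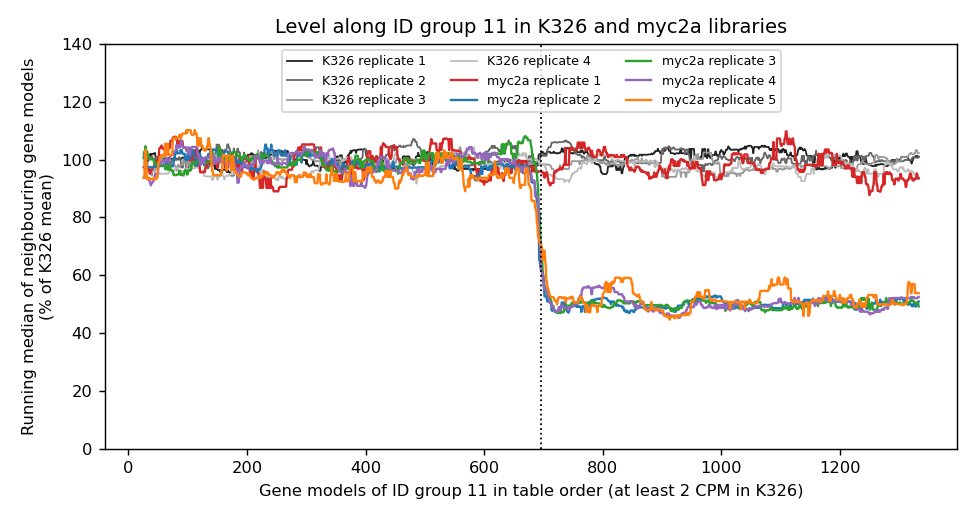
Running median of 51 neighbouring gene models of ID group 11 in table order, as a percentage of the K326 mean, for the 4 K326 libraries (grey) and the 5 myc2a libraries (coloured); the dotted line marks the start of the stretch. The lines of myc2a replicates 2 to 5 step down there to near 50% and stay there, while replicate 1 stays with K326.

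Of the 838 tested gene models of the stretch, 42 were called (5.01%) with all libraries, where 0.17% of all gene models tested were. Without myc2a replicate 1 the calls in the stretch were 388 of 836, 387 of them lower, and 1.01% of all gene models tested were called. The stretch was chosen from the levels of these libraries, so these counts are a description. Without any single one of the other 15 libraries the number ranged from 4 (without K326 replicate 2) to 34 (without nic1 nic2 replicate 3). It was 6, 14 and 10 without K326 replicates 1, 3 and 4, and 10, 15, 10 and 14 without myc2a replicates 2 to 5. It was 24 and 22 without replicates 1 and 2 of nic1 nic2, and without nic1 nic2 myc2a replicates 1 to 4 it was 21, 23, 21 and 20. The median log2 fold change in the stretch was -0.71 with replicate 1 included, beside 0.00 over all gene models tested. In 38 of the 41 falls, leaving aside 3 nearly absent gene models, replicate 1 was at 37.8 to 86.7% of K326 with a median of 69.0%. These values are set by the selection, since replicate 1 was in the fit that made the calls, and over all 663 gene models its median was 97.8%.

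The called members of the stretch with the highest CPM in K326 were neighbours. Ntab11g025260-1.1 was at 442, 425, 300 and 333 CPM in K326 and at 241, 164, 184, 155 and 157 CPM in myc2a (log2 fold change -1.06 ± 0.20 SE, edgeR's adjusted p = 0.0419). Ntab11g025250-1.1 was at 348, 359, 298 and 323 CPM in K326 and at 185, 166, 181, 145 and 151 CPM in myc2a (log2 fold change -1.01 ± 0.16, edgeR's adjusted p = 0.0152). Replicate 1 was the highest myc2a library in each but well under K326, unlike most of the stretch. Mean levels of Ntab11g025250-1.1 were also below K326 in nic1 nic2 (184 ± 43.9 CPM, SD, n = 3) and nic1 nic2 myc2a (197 ± 48.6 CPM, n = 4). Those of Ntab11g025260-1.1 were too, at 231.5 ± 68.2 CPM in nic1 nic2 and 258.1 ± 55.0 CPM in nic1 nic2 myc2a, against 375.2 CPM in K326. Of the other calls in the stretch with a high K326 level, Ntab11g025080-1.1 went from 134 ± 27.4 to 69.1 ± 15.4 CPM and Ntab11g018150-1.1 from 107 ± 7.32 to 57.6 ± 10.4 CPM. Over 28 alternatives these 4 calls were lost in 13, 8, 14 and 11.

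A trio of adjoining serial numbers near the start of the stretch was lower in all 5 myc2a libraries than in any K326 library, named here after its values were seen. That was not particular to the trio, since it held for 187 of the 838 tested gene models of the stretch (22.3%). Ntab11g014010-1.1 was at 43.9 to 74.7 CPM in K326 and at 28.1, 22.9, 13.6, 17.9 and 29.1 CPM in myc2a (log2 fold change -1.45 ± 0.22 SE, edgeR's adjusted p = 0.0106). Ntab11g014020-1.1 (log2 fold change -1.29 ± 0.18, edgeR's adjusted p = 0.00381) and Ntab11g014000-1.1 (-1.21 ± 0.19, adjusted p = 0.012) moved alike. Replicate 1 lay within the range of the other myc2a libraries in Ntab11g014000-1.1 and Ntab11g014010-1.1 and just above it in Ntab11g014020-1.1. In nic1 nic2 myc2a the trio was also below its K326 means of 53.0, 60.9 and 44.5 CPM, at 23.8 ± 7.69, 30.5 ± 8.10 and 24.0 ± 4.46 CPM for Ntab11g014000-1.1, Ntab11g014010-1.1 and Ntab11g014020-1.1 (SD, n = 4). In nic1 nic2 it was at 31.1 ± 2.07, 44.6 ± 8.30 and 38.8 ± 4.42 CPM in the same order (n = 3). Without K326 replicates 1 or 2 the adjusted p of Ntab11g014010-1.1 was 0.0562 and 0.0661. That of Ntab11g014000-1.1 was 0.0657, 0.065 and 0.0503 without K326 replicates 1, 2 and 4.

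Within the stretch, 3 gene models were nearly absent in all 5 myc2a libraries, replicate 1 included. Ntab11g019640-1.1 was at 14.5, 9.25, 6.37 and 8.94 CPM in K326 and had no counts in myc2a, at least 121-fold lower (edgeR's adjusted p = 6.63e-06, at most 0.0356 over 28 alternatives). Ntab11g018170-1.1 was at 3.22, 4.31, 4.68 and 4.26 CPM in K326 and also had no counts, at least 51.2-fold lower (edgeR's adjusted p = 7.8e-05). Ntab11g018440-1.1 held 331 counts over the K326 libraries and 3 over the myc2a libraries, all 3 in replicate 1, a ratio of 114 with a 95% exact counting interval of 38.6 to 555 (edgeR's adjusted p = 7.8e-05). All 3 were present in nic1 nic2 myc2a, at 5.78 ± 2.83, 6.97 ± 1.08 and 2.34 ± 0.183 CPM (SD, n = 4). Replicate 1 thus did not stand apart from replicates 2 to 5 in these gene models by more than those 3 counts.

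The 1 called rise of the stretch, Ntab11g019180-1.1, lay between these in the table. It was at 5.54, 5.99, 3.61 and 5.26 CPM in K326 and at 57.4, 21.4, 24.9, 20.3 and 27.6 CPM in myc2a (log2 fold change 2.57 ± 0.43 SE, edgeR's adjusted p = 0.0198, range 1.37e-07 to 0.0909 over 28 alternatives). Replicate 1 was the highest library by a wide margin, at 1130% of the K326 mean against 397 to 541% in replicates 2 to 5. In nic1 nic2 myc2a it was at 3.44 ± 1.73 CPM (SD, n = 4).

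Single members of the stretch departed from the 50% level in myc2a replicates 2 to 5. Of the 663 gene models, 18, 14, 19 and 49 were under 25% of K326 in replicates 2 to 5. At 75% or more were 24, 23, 40 and 99. Replicate 5 also had the widest spread outside the stretch, with 5th to 95th percentiles of 48.4 to 168% of K326. Those of replicate 2 were 68.9 to 131%. These counts therefore include the spread of each library. The gene models given next were picked by the rule from the lowest and highest percentages. Ntab11g017280-1.1, not called, was at 23.5, 23.1, 17.0 and 5.76% of its K326 mean of 54.0 CPM in replicates 2 to 5 and at 74.0% in replicate 1. Ntab11g021910-1.1, at 8.16 CPM in K326, stood at 37.8, 32.9, 41.0, 17.2 and 34.6% in replicates 1 to 5. It was among the called falls (log2 fold change -1.61 ± 0.31 SE, edgeR's adjusted p = 0.0467), and the call was lost without any of 13 single libraries (adjusted p 0.0534 to 0.217), all but myc2a replicate 1 and nic1 nic2 myc2a replicates 1 and 4. At the other end, given without a test, Ntab11g014750-1.1 was at 89.6, 75.5, 109, 83.0 and 95.1% of its 7.38 CPM. Ntab11g018880-1.1 was at 153, 95.9, 70.3, 91.3 and 91.1% of its 20.3 CPM. In all, 2 of the 663 gene models were over 75% of K326 in every myc2a library, Ntab11g014750-1.1 and Ntab11g019180-1.1, and 2 were under 25% in every one, Ntab11g018170-1.1 and Ntab11g019640-1.1.

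**Figure D4:**
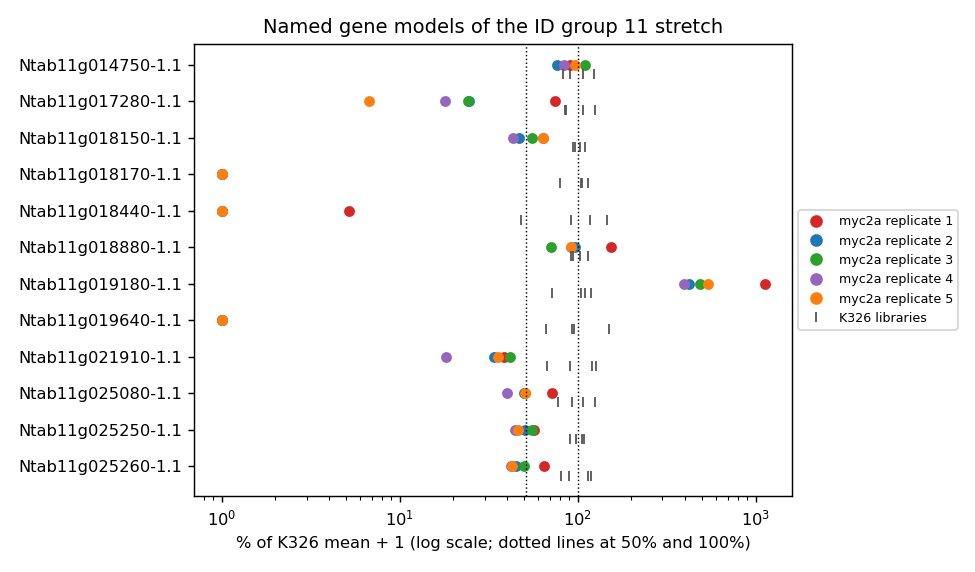
Percentage of the K326 mean, plus 1, on a log axis for the 12 gene models of the stretch named by the rule, in table order, with a coloured point for each myc2a library and grey ticks for the K326 libraries. Ntab11g018170-1.1 and Ntab11g019640-1.1 lie at 0% in all 5 myc2a libraries, and Ntab11g019180-1.1 at 397 to 1130%.

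The second pair of genotypes that differs in the myc2a label, nic1 nic2 myc2a against nic1 nic2, shares no library with myc2a against K326. Both share the estimate of the spread, the filter on low counts and the scaling. In that pair 174 gene models were called, 0.405% of those tested. Of the 73 gene models called in myc2a against K326, 3 were also called there in the same direction, 4.11% of the 73 and 1.72% of the 174, and 0 in the opposite direction. The median log2 fold change in the second pair was 0.21 for the 18 falls outside the stretch, -0.11 for the 11 rises with counts there and -0.02 for the 42 calls of the stretch, beside -0.01 over all gene models tested. The other 2 rises, Ntab17g006510-1.1 and Ntab22g020250-1.1, had no counts in either group of the second pair.

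The 3 gene models called in both pairs were Ntab05g001130-1.1, Ntab06g019810-1.1 and Ntab05g002080-1.1. Ntab05g001130-1.1 was at 4.08, 4.57 and 5.38 CPM in nic1 nic2 and at 21.7, 25.3, 16.2 and 20.2 CPM in nic1 nic2 myc2a (log2 fold change 2.15 ± 0.26 SE, edgeR's adjusted p = 0.00031). Ntab06g019810-1.1 was at 0.514, 0.781 and 0.172 CPM in nic1 nic2 and at 3.39, 6.04, 10.0 and 11.5 CPM in nic1 nic2 myc2a (log2 fold change 3.97 ± 0.73, edgeR's adjusted p = 0.0149). Ntab05g002080-1.1 was at 45.9, 52.7 and 35.6 CPM in nic1 nic2 and at 11.9, 22.5, 7.21 and 8.02 CPM in nic1 nic2 myc2a (log2 fold change -1.85 ± 0.36, edgeR's adjusted p = 0.0251). In each the groups of the second pair did not overlap. The neighbour Ntab06g019820-1.1 had a log2 fold change of 3.72 ± 0.89 there and was not called (edgeR's adjusted p = 0.0992). The number called in both pairs was 0 without K326 replicates 2 or 3, 5 without myc2a replicate 1, and 1 without K326 replicate 1 or nic1 nic2 replicates 1 or 3.

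**Figure D5:**
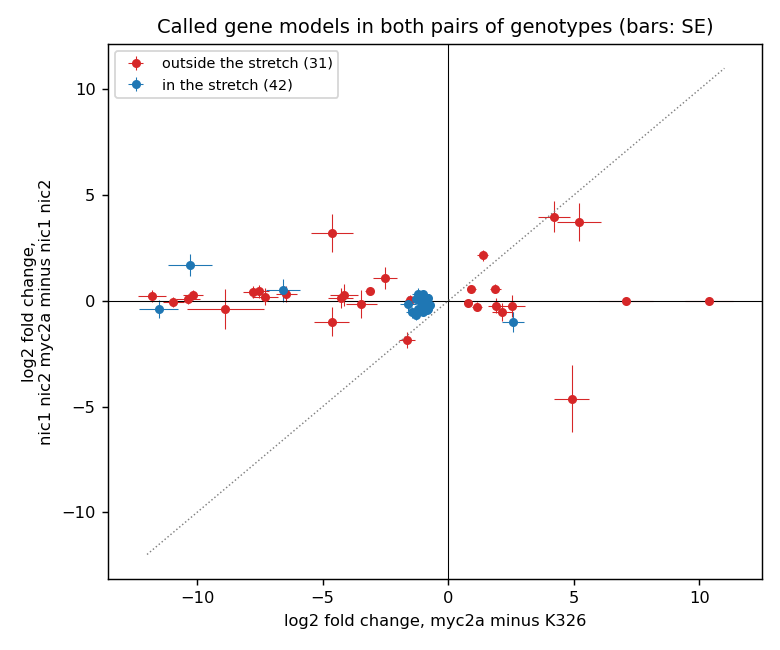
Fitted log2 fold change of the 73 called gene models in myc2a minus K326 (horizontal axis) and in nic1 nic2 myc2a minus nic1 nic2 (vertical axis), with SE bars where the fit gave one; values of gene models without counts in a group depend on the small count the fit adds. The calls of the stretch have a median of -0.02 on the vertical axis, Ntab17g006510-1.1 and Ntab22g020250-1.1, without counts in the second pair, are drawn at 0, and Ntab05g001130-1.1, Ntab06g019810-1.1 and Ntab05g002080-1.1 lie near the dotted line of equal change.

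The difference between both pairs was tested as an interaction. It was past the threshold for 101 of all gene models tested (0.235%) and for 20 of the 73, 15 outside the stretch and 5 in it. The interaction contains the myc2a minus K326 difference that selected the 73, from the same libraries. Their share is therefore raised by the selection and is a description. Without myc2a replicate 1 the interaction was past the threshold for 206 of the calls of that fit. Among the 20 were all 7 gene models of the run in ID group 8. Ntab05g003880-1.1 had a difference of -8.00 on the log2 scale (edgeR's adjusted p = 1.25e-07), Ntab22g024750-1.1 one of -7.51 (adjusted p = 5.68e-06) and Ntab01g017260-1.1 one of -3.60 (adjusted p = 9.36e-07). The means of these 3 in nic1 nic2 myc2a were above those in K326. The allele and other differences between the lines cannot be told apart in these comparisons.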

How the data were processed

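Root RNA was sequenced in 16 libraries of 4 genotypes, and the 4 K326 and 5 myc2a libraries are compared here. The authors deposited raw counts per gene model and library in a single table of whole numbers, with no normalization. The tools named in the submitters' processing notes are HISAT2 2.1.0, bedtools, SAMtools and FastQC; build, annotation and counting settings are not given in the sources used here. Per the labels' protocols the library kit marks strand, and whether counting used strand is not given, so antisense partners may share counts. Of the low counts (1 to under 200) 59.7 to 65.6% were even, so mates of a pair may have been counted separately and a count may not be a fragment. Columns were matched to libraries by name, the nic1 nic2 myc2a columns by genotype letters and number, and 0 columns were left unused. Identifiers matched 0 names of the reference table, so no list of named genes or markers was analysed and no sequence is printed.

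Counts were fitted in R 4.3.3 with edgeR 4.0.16: filterByExpr at its defaults, TMM scaling, quasi-likelihood fits of genotype means over all 16 libraries (12 residual degrees of freedom), and Benjamini-Hochberg adjustment over 43009 gene models at 0.05. SE is the absolute log2 fold change divided by the square root of F. Levels are CPM on TMM-scaled totals of the gene models tested. A fold against a group without counts is a bound computed with 3 counts in each of its libraries. Ratios with 1 to 3 counts in a group have exact 95% intervals of counting error only. Alternatives used DESeq2 1.42.0, limma 3.58.1, other scalings, filters and samples. The fit was tested on simulated data. Figures were drawn with matplotlib 3.10.9.

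The comparison, the stretch, the run and the rule for naming gene models were chosen with earlier results of these data known. The rule takes, at 1 CPM or more in the higher group, the 8 largest rises and 12 largest falls outside the stretch; inside it, the 4 calls with the highest K326 level, the 4 largest falls and every rise; the run of ID group 8; and, without a test, the 3 lowest and 3 highest percentages among stretch gene models of at least 5 CPM, ranked by the mean without myc2a replicate 1. Other gene models are named because they were called, or after their values were seen.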

Additional observations from a re-analysis of the deposited data

Results flagged for a closer look

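In 43 gene models and the stretch medians, each group of 4 or 5 libraries was examined for a library far from the others. By Dixon's criterion 12 of 132 such groups held one. Chance gives about 1 in 20 for normal values in groups not chosen by their levels. A group with counts in a single library always meets the criterion, and a group without any counts never can. Both kinds are among the 132. The gene models and the stretch were also chosen from these libraries, so the count is a description. In myc2a replicate 1 the median of the ID group 11 stretch was 97.8% of K326, Ntab11g019180-1.1 was at 57.4 CPM, Ntab11g017280-1.1 at 39.9 CPM and Ntab11g018440-1.1 at 0.0778 CPM. Replicate 1 was the highest myc2a library in each. Other myc2a libraries above the rest of their group were replicate 2 for Ntab08g028930-1.1 (0.103 CPM), replicate 3 for Ntab08g028890-1.1 (0.407 CPM) and replicate 5 for Ntab22g024750-1.1 (0.440 CPM). In K326, replicate 1 stood above the others for Ntab10g022030-1.1 (3.77 CPM) and for Ntab22g020250-1.1 (0.0273 CPM). In nic1 nic2 myc2a, replicate 1 was low for Ntab08g028900-1.1 (5.96 CPM) and high for Ntab08g028930-1.1 (37.0 CPM), and replicate 4 was high for Ntab24g011880-1.1 (47.4 CPM).

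Among 40 named calls, 19 differed between the pairs in the interaction test of the edgeR fit. Over all 43009 gene models tested 101 did (0.235%). The test contains the myc2a minus K326 difference that selected the calls, which raises their share. Differences are myc2a minus K326, less nic1 nic2 myc2a minus nic1 nic2, on the log2 scale. In the run of ID group 8 the differences were -4.42 for Ntab08g028890-1.1, -10.44 for Ntab08g028900-1.1, -12.03 for Ntab08g028910-1.1, -10.91 for Ntab08g028920-1.1, -10.44 for Ntab08g028930-1.1, -6.77 for Ntab08g028940-1.1 and -8.22 for Ntab08g028950-1.1. In the stretch they were -11.98 for Ntab11g018170-1.1, -7.08 for Ntab11g018440-1.1, -11.16 for Ntab11g019640-1.1 and 3.58 for Ntab11g019180-1.1. Elsewhere they were -8.00 for Ntab05g003880-1.1, -7.51 for Ntab22g024750-1.1, -3.60 for Ntab01g017260-1.1, -1.55 for Ntab06g000070-1.1, -4.43 for Ntab10g022030-1.1, -3.63 for Ntab18g021880-1.1, -7.86 for Ntab17g011100-1.1 and 9.54 for Ntab04g028470-1.1. Values of gene models without counts in a group depend on the small count the fit adds.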

How the results depend on the processing

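Each count was recomputed under 29 alternatives. The cause of the shifts was not tested. Of the 73 calls, 10 were kept in every alternative that could test them: Ntab01g017260-1.1, Ntab05g003880-1.1, Ntab08g028910-1.1, Ntab08g028930-1.1, Ntab08g028940-1.1, Ntab08g028950-1.1, Ntab11g019640-1.1, Ntab20g007510-1.1, Ntab20g021370-1.1 and Ntab22g024750-1.1 (largest adjusted p 0.0367). No called gene model changed direction. Total calls were 247 with DESeq2, 473 with limma-voom and sample quality weights, 43 in a fit of the 9 libraries alone, 22 with the stretch left out of the fit (fewer gene models tested), 22 without K326 replicate 2 and nic1 nic2 replicate 3, and 364 without K326 replicate 2 and myc2a replicate 1. In the stretch the number was 160 with DESeq2, 74 with limma-voom, 394 with quality weights, 17 in the 9 libraries, 25 with library size only, and 7 and 325 in the fits without 2 libraries. Rises outside it numbered 43 with DESeq2, 7 with limma-voom, 40 with quality weights and 2 without K326 replicate 2 and nic1 nic2 replicate 3; falls numbered 44 with DESeq2 and 39 with quality weights. Calls shared with the second pair numbered 9 with DESeq2 and 0 without K326 replicate 2 and nic1 nic2 replicate 3. Calls with a difference between the pairs numbered 65 with DESeq2, 75 with quality weights, 13 with the stretch left out, and 13 and 163 in the fits without 2 libraries. Leaving out single libraries gave 19 to 434 calls in all, 4 to 388 in the stretch, 2 to 18 rises and 13 to 28 falls outside it, 0 to 5 shared with the second pair and 14 to 206 with a difference between the pairs. Other scalings and filters left the total between 53 and 80.

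Replicate numbers gave no sign of pairing: deviations of same-numbered K326 and myc2a libraries correlated at -0.13 to 0.047, and 0 of 4 K326 libraries correlated best with their own number. With a replicate block in the 9 libraries 15 gene models were called (13 of the 73), 5 in the stretch, 2 rises and 8 falls outside it. With the replicate block in 16 libraries 36 were called (32 of the 73), 21 in the stretch and 2 rises outside it, with 0 shared with the second pair. In both block fits replicate number 5 exists in myc2a alone, so its block takes up that library. The 9-library block fit also has fewer residual degrees of freedom than the main fit. The 9-library block was the only alternative to lose Ntab06g000070-1.1, Ntab08g028890-1.1, Ntab08g028900-1.1, Ntab08g028920-1.1, Ntab11g014020-1.1, Ntab11g018170-1.1 and Ntab11g018440-1.1 (adjusted p 0.0698, 0.113, 0.107, 0.0664, 0.0981, 0.107 and 0.191), and it also lost Ntab10g022030-1.1 (0.107); with Ntab17g006510-1.1 both block fits did (0.0981 and 0.0671).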

Other observations

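Not every gene model that was low in all 5 myc2a libraries was called. Of the tested gene models, 13 were under 0.5 CPM in every myc2a library and at 1 CPM or more in every K326 library, and 12 of these were called. The other, Ntab15g008220-1.1, was at 11.9, 23.2, 4.51 and 1.39 CPM in K326 and at 0.415, 0.0774, 0.380, 0.0583 and 0 CPM in myc2a (edgeR adjusted p = 0.0758). It lies close in serial number to Ntab15g008200-1.1, which fell and whose K326 libraries were also uneven. Ntab15g008220-1.1 was at 0.409, 6.04, 0.601 and 0.453 CPM in nic1 nic2 myc2a. In nic1 nic2 it was also uneven, at 1.03, 0.418 and 11.1 CPM. In the opposite direction, 2 gene models were under 0.5 CPM in every K326 library and at 1 CPM or more in every myc2a library, Ntab06g019820-1.1 and Ntab17g006510-1.1.

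Outside the stretch, 393 of 42171 gene models (0.932%) had every myc2a library below every K326 library and 426 (1.01%) had every one above. In the stretch, chosen from such levels, these were 187 of 838 (22.3%) and 1 (0.119%), and over all gene models tested 1.35 and 0.993%. At an unadjusted p under 0.05 were 524 of the 838 (62.5%), beside 5.21% of all gene models tested. Outside ID group 11, the median log2 fold change of an ID group ranged from -0.004 to 0.035, and an ID group held 0 to 7 calls.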
